A study of Mus musculus with 6 samples.

Results

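Total mammary epithelial cells (MEC) from virgin mice heterozygous for a ΔNp63 knockout (het) were set against total MEC from virgin wild-type (WT) mice. Both groups were of strain C57/B6, and each was measured on 1 array. Cell suspensions had been prepared from mammary glands by mechanical and enzymatic dissociation, and the labels give no enrichment for the MEC samples and not the number or age of the mice. All 41174 probes of the array that are not controls entered, from 2 of the 6 arrays of the series. The other 4 arrays hold the same genotypes in sorted P4 (CD24+CD29hi) and P5 (CD24+CD29lo) cells, and are used here only to show where MEC differed from them. The sample was labelled with Cy5 on every array and the common reference with Cy3, with no dye swap; the reference, Universal Mouse Reference RNA, pools RNA of 11 cell lines.

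p63, encoded by Trp63, is a transcription factor of the p53 family that maintains the basal layer of stratified and glandular epithelia. ΔNp63 isoforms start from an internal promoter, lack the N-terminal transactivation domain and predominate in basal cells of the mammary gland. The gland is a bilayer: basal and myoepithelial cells express the keratins Krt5 and Krt14 and contract during milk ejection, and luminal cells express Krt8, Krt18 and Krt19 and divide into hormone-sensing cells, which carry estrogen and progesterone receptors, and secretory progenitors. Wnt ligands and R-spondins are among the signals known to sustain mammary stem cells, and Axin2 is a general target of that pathway.

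With 1 array a side no difference between the genotypes can be tested, and precision is limited by there being so few arrays. Both MEC arrays lay on slide 2, WT at position 1 and het at position 2, so genotype and array position cannot be told apart. Differences below are het MEC minus WT MEC in log2(Cy5/Cy3) after background correction and loess within each array, so that 1 stands for 2-fold. Probes printed 10 times on each array (245 of them) gave a technical standard error of 0.106 for such a difference, which covers printing and hybridisation within an array only and not the spread between mice. Signals quoted for a gene are the scanner's mean signals of its brightest probe before any correction. Levels were comparable on the arrays: 88.4% of spots were well above background in Cy5 for WT MEC and 89.8% for het MEC, the median Cy5 signals were 188 and 173, and the log2 ratios of the arrays correlated at 0.914 across genes.

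Of 24641 genes well above background on at least 1 MEC array, 292 (1.19%) were at least 2-fold higher in het MEC and 258 (1.05%) at least 2-fold lower. These counts rest on replacing local backgrounds that the scanner marks as outliers, a choice made after seeing the data: with the backgrounds as given they were 497 (2.02%) and 170 (0.69%). With the log ratios of the scanner software they were 673 (2.73%) and 675 (2.74%), and 257 genes were higher and 126 lower by 2-fold under all 3. With each array centred on its median in place of loess the counts were 224 and 544, so the split between higher and lower depends on the scaling. The median difference over all genes was 0.01 and the standard deviation 0.38. The threshold fell between Gnb2 (1.00072) and Elapor1 (0.997751) on the higher side, and between Axl (-1.00152) and Dsel (-0.99945) on the lower side, so membership near it carries no weight. Of the 73 genes that the rule for named genes picked besides Trp63, all of them 2-fold apart, 24 were under 2-fold in at least 1 other setting and 0 turned sign. With the backgrounds as given 13 were: C1qc, Cd52, Csn1s2a, Fzd7, Gpm6b, Ifit3, Jag1, Krt27, Krt35, Lgr4, Lum, Muc15 and Wnt2. With the scanner software's log ratios 6 were: C1qc, Fzd10, Krt18, Muc15, Prom1 and Wnt2. Bright genes made up most of the higher set, when the genes are split by level into 4 bins of equal size: 192 of the 292 were in the brightest bin and 0 in the dimmest, against 94 of the 258 lower genes in the brightest.

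**Figure D1:**
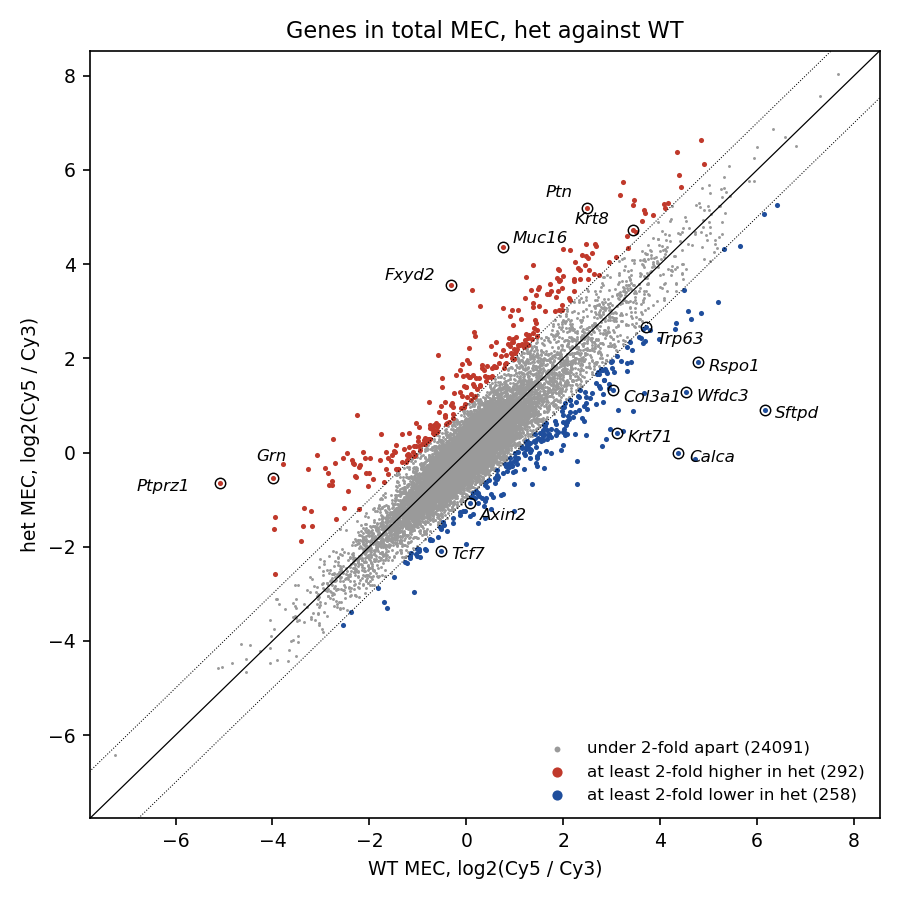
Each point is 1 of 24641 genes, with log2(Cy5/Cy3) in WT MEC on the x axis and in het MEC on the y axis. The solid line marks equality and the dotted lines 2-fold. The 292 genes at least 2-fold higher in het MEC are red and the 258 at least 2-fold lower are blue, and Ptprz1 (higher) and Sftpd (lower) lie farthest from the solid line.

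Of the probe sequences below, the first is that of the targeted gene. The others are examples of probes higher in het MEC, chosen with their values known, and are not the set with the largest differences. Each is the first 30 bases of a 60-base probe, read 5′ to 3′ from the scanner files, with G and C in capitals.
Trp63: CaaaaGGtaCtttCttataGaCatGataCt
Ptprz1: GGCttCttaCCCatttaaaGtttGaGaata
LOC673334: atatGCttGtCtCaaaGattaaGCCatGCa
Pigt: CCCCCtCGatGCtCttaGCtGaGtGtCCCG
J00623: taCCGtaaGGGaaaGttGaaaaGaaCtttG
Cox17: aGCCCGCCGCaCCCaCCGGCCCGCaCGGCt
Klf2: aCaCGCCGCCGCtCaGCCCCGaCGGCCCCC
Ptms: GGCtCCtCCGCCtCGGCCCCGGGaCCCCGG
The files place the Trp63 probe at chr16:25553466-25553525 on the plus strand and the Ptprz1 probe at chr6:22942347-22942406 on the plus strand, and the header of the array's grid names build mm7. No annotation of that build was used, so exon, intron or UTR is not given. G and C make up 35% of the Trp63 probe, 45% of the Ptprz1 probe, 78.3% of the Cox17 and Klf2 probes and 85% of the Ptms probe.

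Trp63, the targeted gene, was lower in het MEC. Its brightest probe gave a Cy5 signal of 2539 in WT MEC and 1055 in het MEC, against reference Cy3 signals of 99.1 and 93.8. The log2 ratio was 3.71 in WT MEC and 2.66 in het MEC, a difference of -1.04. The same probe stood at 5.99 in WT P4, 5.48 in het P4, 0.54 in WT P5 and 0.89 in het P5, so the MEC values lay between those of the sorted populations, with WT above het in P4 and MEC and below it in P5. With the backgrounds as given the order in P4 turned, 4.41 in WT and 5.29 in het. The MEC difference was -0.13 with the backgrounds as given, -0.99 with the scanner software's log ratios and -0.75 in the Cy5 channel alone. The probe is not known here to lie in a part specific to ΔNp63 or in the deleted part, so which Trp63 transcripts it reads is not known. The other 2 Trp63 probes were dim, with Cy5 signals between 52.9 and 79.0 on the MEC arrays, and differed by 0.06 and 0.05. In bulk cells, fewer p63-expressing cells and less Trp63 RNA per cell cannot be told apart.

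**Figure D2:**
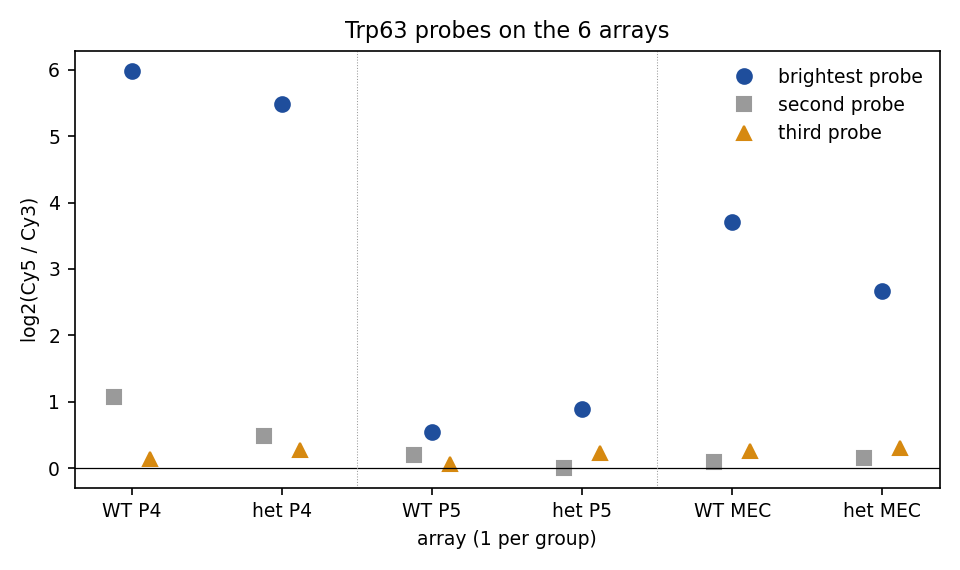
Log2(Cy5/Cy3) of the 3 Trp63 probes (y axis) on each of the 6 arrays (x axis), 1 array per group and no error bar. The brightest probe stands at 3.71 in WT MEC and 2.66 in het MEC, and the other probes stay near 0 on the MEC arrays.

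Genes linked to p63 in epithelia were spread on both sides of 0. Of 20 measured, 1 (5%) was at least 2-fold higher, Fgfr2, and 1 (5%) at least 2-fold lower, Trp63 itself. Over all genes 1.19% were higher and 1.05% lower, the base for the share of each list below. The lists were chosen with earlier results of these data known, so such shares are not independent support. The median of the p63-linked list was -0.19 beside 0.01 over all genes, and it turned to 0.17 with the backgrounds as given. Fgfr2, a receptor for fibroblast growth factors, had a Cy5 signal of 1311 in WT MEC and 3679 in het MEC, a difference of 1.65, and its 2 dimmer probes gave 0.75 and 0.39. Egfr (-0.91), the epidermal growth factor receptor, and Ovol1 (-0.90), an epithelial transcription factor, lay just short of 2-fold on the lower side. Of 18 genes of hemidesmosomes and basement membrane, 0 were 2-fold higher and 1 lower, Lamb1, a laminin chain, at -1.30, with a median of -0.33 that became 0.08 with the backgrounds as given.

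Basal keratins and contractile genes of myoepithelial cells held no gene 2-fold apart among 20 measured, with a median of -0.11 (0.07 with the backgrounds as given). For the keratins that mark basal cells the log ratio and the sample channel gave opposite signs. Krt5 had a Cy5 signal of 30920 in WT MEC and 13805 in het MEC, but its reference Cy3 signal was also lower, 1561 against 864, and the log2 ratio differed by 0.18 where the Cy5 channel alone differed by -0.70. Krt14 differed by 0.25 as a ratio and by -0.42 in Cy5 alone, and Krt17 by 0.42 and -0.13. With median centring, 3 of the 20 were 2-fold lower and the ratios of Krt5, Krt14 and Krt17 were -0.23, -0.22 and -0.09. Krt15, another basal keratin, chosen here after its values were seen, had the widest gap: Cy5 signals of 18960 and 3663, Cy3 signals of 937 and 303, a ratio difference of -0.31 and a Cy5 difference of -1.75.

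The reference RNA was the same on all arrays, yet within each of the 3 populations the genotype with the higher Cy5 signal also had the higher Cy3 signal for Krt5, Krt14, Krt15 and Krt17. Between populations the channels did not keep 1 order: Krt15 had its highest Cy5 signal in WT MEC and its highest Cy3 signal, 2186, in WT P4, where Cy5 was 11256. The Cy3 signal of Krt5 was 7531 in WT P4, 4836 in het P4, 752 in WT P5 and 520 in het P5, with Cy5 signals of 58196, 37102, 1026 and 928. Its cause was not tested. Over all genes, 40 were at least 2-fold lower in Cy5 alone with a ratio under 2-fold apart, 16 of them with Cy3 at least 2-fold lower as well. On the higher side these counts were 86 and 2.

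Luminal genes were mostly higher in het MEC. Of 17 measured genes of luminal cells in general, 16 lay above 0, 4 (23.5%) were at least 2-fold higher and 0 lower. The share higher was 1.19% over all genes and 3.12% in the brightest of the 4 bins by level. The median of the list was 0.32 beside 0.01 over all genes. The 4 were Krt8 at 1.28, Krt19 at 1.14 and Krt18 at 1.01, the keratins of simple epithelium, and Prom1 at 1.16, a membrane glycoprotein of hormone-sensing luminal cells. Krt8 had Cy5 signals of 222543 and 295194, and its second probe gave 1.23. These keratins are among the brightest genes, where loess moved the values most: with median centring Krt8 differed by 0.70, Krt19 by 0.70 and Krt18 by 0.38, 1 of the 17 genes was 2-fold higher and the median was 0.15. In the brightest of the 4 bins the median difference was -0.36 under median centring and -0.02 under loess. Epcam, an epithelial adhesion molecule, differed by 0.09. In the sorted cells the medians of the same list were -0.03 for P4 and -0.30 for P5, beside 0.08 for each over all genes. The order in MEC was thus not seen in sorted CD29lo cells.

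Hormone-sensing luminal genes held larger differences in both directions. Of 19 measured, 5 (26.3%) were at least 2-fold higher and 1 (5.26%) lower, with a median of 0.63 (0.34 with median centring). Over all genes the shares were 1.19% and 1.05%. Ptn, the heparin-binding growth factor pleiotrophin, had a Cy5 signal of 5265 in WT MEC and 31698 in het MEC, a difference of 2.71. Cxcl15, a chemokine, differed by 1.80, with 1.31 on its second probe, and Wnt4, the Wnt ligand that acts downstream of progesterone, by 1.45 with Cy5 signals of 768 and 2020. The progesterone receptor Pgr differed by 0.74, the prolactin receptor Prlr by 0.75 and the estrogen receptor Esr1 by -0.08, so the receptors that define the class stayed under 2-fold. In the sorted cells the medians of the hormone-sensing list were -0.09 for P4 and -0.42 for P5, het below WT.

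Calca, which encodes calcitonin and its related peptide, went the other way within that list. Its Cy5 signal was 38106 in WT MEC and 324 in het MEC, a difference of -4.39, and its second probe gave -2.11. The Cy3 signal of the brightest probe was 916 and 209, and its difference in Cy5 alone was -6.10. In the sorted cells het stood above WT for Calca, by 4.71 in P5 and by less in P4. Rspo1, an R-spondin that enhances Wnt signalling and is made by luminal cells, had the same order: a Cy5 signal of 4546 in WT MEC and 432 in het MEC, a difference of -2.87, beside 0.76 in P4 and 2.71 in P5. Of 15 genes of luminal progenitors Rspo1 was the 1 at least 2-fold lower and 0 were higher, with a median of -0.20 (0.02 with the backgrounds as given). Elf5, the transcription factor of the alveolar lineage, differed by -0.13 and Kit, the stem cell factor receptor, by -0.81.

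**Figure D3:**
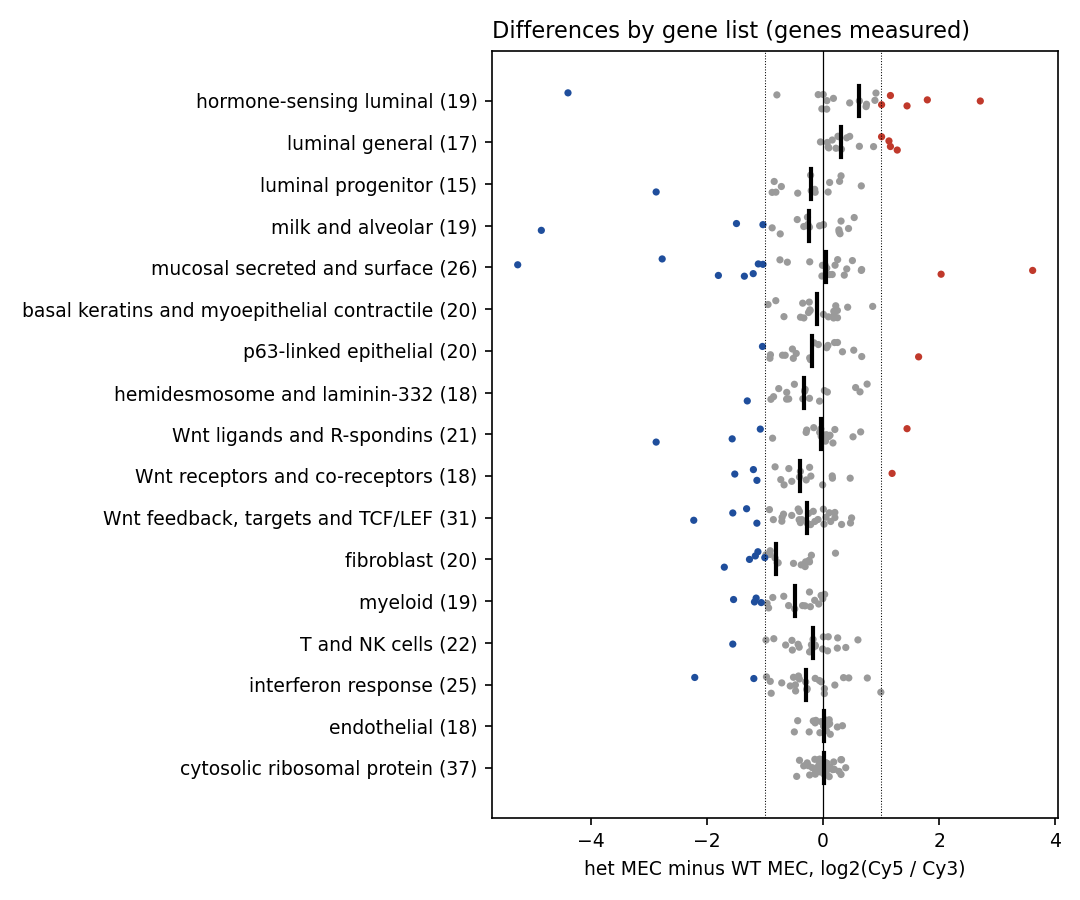
Each point is a measured gene of the list named on the y axis (number of genes in parentheses), placed by its difference het MEC minus WT MEC in log2(Cy5/Cy3) on the x axis, with black bars for medians and dotted lines at 2-fold. Points of hormone-sensing and general luminal genes lie mostly to the right (medians 0.63 and 0.32) and those of fibroblast and myeloid genes to the left (medians -0.81 and -0.49).

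Transcripts of fibroblasts and myeloid cells were lower in het MEC. Lists of other stromal and immune cells had medians from -0.30 (antigen presentation and pan-leukocyte genes) to 0.06 (B cells). Of 20 fibroblast genes 1 lay above 0, 0 were 2-fold higher and 5 (25%, against 1.05% over all genes) were at least 2-fold lower. The median was -0.81. With median centring 12 of the 20 were 2-fold lower and the median was -1.06. Col3a1, a fibrillar collagen, had Cy5 signals of 135142 in WT MEC and 30597 in het MEC, a difference of -1.70, and Col1a1 had signals of 117757 and 37169, a difference of -1.12. Other probes well above background on both arrays gave -0.40 for Col3a1, and -0.62 and -0.09 for Col1a1. Lum, a collagen-binding proteoglycan, differed by -1.16, the stromal protease Mmp3 by -1.27 and the matrix protein Postn by just over 2-fold. The summed normalized Cy5 level of the 20 genes was 480767 in WT MEC and 245921 in het MEC. Col3a1, Col1a1, Lum and Mmp3 were well above background in Cy5 on both arrays, so both suspensions held transcripts of these genes. In the sorted cells the medians of the same list were 0.25 for P4 and 0.66 for P5, het above WT.

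Myeloid genes were lower as a group as well: of 19, 1 lay above 0 and 4 (21.1%) were 2-fold lower, Aif1 at -1.54, the protease gene Ctss at -1.18, the complement gene C1qc at -1.15 and the adaptor gene Tyrobp at -1.06. Their summed normalized Cy5 level was 35822 in WT MEC and 22986 in het MEC. The macrophage receptor gene Csf1r differed by 0.03 and Adgre1 by -0.31. Of 22 genes of T and NK cells 1 was 2-fold lower, Tcf7, and the median was -0.18. Of 15 antigen presentation and pan-leukocyte genes 2 were 2-fold lower, Cytip at -1.18 and Cd52 at -1.04. In that list 2 genes lay above 0 and the median was -0.30. The other Cytip probes gave 0.43 and 0.02. Of 14 B cell genes 0 were 2-fold apart, 9 lay above 0 and the median was 0.06. Endothelial genes (18) and skeletal muscle genes (16) held none 2-fold apart, with medians of 0.01 for both. With the backgrounds as given the endothelial median was 0.52 and 2 genes were 2-fold higher, and with median centring that median was -0.15. Adipocyte genes held 1 of 17, Dgat2, an enzyme of triglyceride synthesis, at 1.62. How far the make-up of the 2 suspensions enters the other differences was not tested.

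Wnt pathway genes 2-fold apart were mostly lower in het MEC, and fewer of the ligands and receptors were with the backgrounds as given. Among 21 ligands and R-spondins 1 was at least 2-fold higher, Wnt4, and 3 (14.3%) were lower: Rspo1, Wnt2 at -1.56 and Wnt10a at -1.08, with a median of -0.03 (0.08 with the backgrounds as given). Wnt2, a ligand made by mammary stroma, had Cy5 signals of 3477 and 887 but differed by -0.34 with the backgrounds as given. Among 18 receptors and co-receptors 4 lay above 0, 1 was higher, Fzd10 at 1.19, and 3 (16.7%) were lower: Fzd1 at -1.52, the R-spondin receptor gene Lgr4 at -1.20 and Fzd7, a receptor of mammary stem cells, at -1.14, with a median of -0.40. The other Lgr4 probes gave -0.93, -0.01 and -0.07, and the second Fzd7 probe gave -0.06. With the backgrounds as given the receptors had a median of -0.08, with 1 gene higher and 1 lower. Fzd10 had Cy5 signals of 2306 and 10267, and its Cy3 signal was also higher in het MEC, 108 against 269; its second probe gave 1.77, while the brightest one gave 0.69 with the scanner software's log ratios.

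Among 31 feedback genes, targets and TCF/LEF factors, 0 were 2-fold higher and 4 (12.9%, against 1.05% over all genes) were lower. Axin2 and Tcf7, among these 4, are markers given for this comparison, so this share is partly built in. The median was -0.27 (-0.12 with the backgrounds as given). Wif1, a secreted Wnt inhibitor, had Cy5 signals of 1265 and 206 and differed by -2.23. Sfrp2, another secreted inhibitor and a fibroblast product, differed by -1.32. Axin2 had Cy5 signals of 284 and 110 and differed by -1.14, beside -0.42 in P4 and 0.36 in P5. Tcf7, a transcription factor of the pathway that T cells also express, had Cy5 signals of 570 and 150 and differed by -1.55, with -0.16 on its second probe. Of the other genes of the list, the targets Nkd1 (-0.92) and Lgr5 (-0.39) were under 2-fold, Lef1 differed by 0.01 and Ctnnb1, the gene of β-catenin, by 0.02. Snai2, a transcription factor of basal and mesenchymal cells, differed by -1.71, and the Notch ligand Jag1 by -1.05, 1 of 23 Notch genes 2-fold apart.

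Secreted defence proteins of mucosal surfaces differed in both directions. Of 26 measured, 2 (7.69%) were at least 2-fold higher and 7 (26.9%) lower, against 1.19% and 1.05% over all genes, while the median was 0.04. The list was chosen with earlier results known and holds Sftpd and Muc16, markers given for this comparison, so these shares are partly built in. Sftpd, surfactant protein D, had a Cy5 signal of 28636 in WT MEC and 146 in het MEC, and the difference was -5.26. Its Cy3 signal was 201 on the WT array and 47.5 on the het array, and the difference was -3.57 with the scanner software's log ratios, where Glycam1 (-5.18) and Calca (-4.34) were further apart. The acute-phase gene Saa2 had Cy5 signals of 3559 and 233 (-2.77), Clca1 differed by -1.80, Saa1 by -1.35, the protease inhibitor gene Slpi by -1.20, Cp by -1.11 and Muc15 by -1.03. On the higher side Muc16, a membrane mucin, had Cy5 signals of 204 and 3615 and differed by 3.61, with 0.17 on its second, dimmer probe. Dmbt1, a scavenger receptor of mucosal secretions, had Cy5 signals of 3980 and 32136 and differed by 2.03. Its Cy3 signal was 99.7 and 259, and the difference was 1.39 with the scanner software's log ratios and 3.39 in Cy5 alone.

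Among milk and alveolar genes the difference was large for 1 gene. Glycam1, a secreted mucin-like protein, had a Cy5 signal of 7849 in WT MEC and 53.9 in het MEC, where it was not well above background. Its Cy3 signal was 153 and 47.7. The difference was -4.85, between -4.10 and -5.92 in the other settings, and since the het signal has only a bound, so has this value. Glycam1 was lower in het P4 too, by -4.73, and differed by 0.02 in P5. Of 19 milk and alveolar genes 3 (15.8%) were 2-fold lower, Glycam1, Csn1s2a at -1.49 and Muc15, and 0 were higher, with a median of -0.23 that became 0.13 with the backgrounds as given.

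Keratins of the hair follicle's inner root sheath, a list chosen after its values were seen, were lower in het MEC for 4 of 5 genes, all 4 still well above background there. Krt71 had Cy5 signals of 1387 and 179 (-2.70), Krt25 of 848 and 83.8 (-2.59), Krt28 of 975 and 104 (-2.47) and Krt27 of 385 and 82.4 (-1.76), while Krt26 differed by -0.02. Hair cortex and epidermis, listed in the same way, held 1 of 8 and 0 of 9 genes 2-fold apart, Krt35 at -1.32. In P4 and P5 the medians of the inner root sheath list were -0.14 and 0.02.

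Other genes with the largest differences on the lower side were Wfdc3, a protease inhibitor gene, at -3.26 (Cy5 11519 and 617, with 0.17 on its second, dim probe), the interferon-induced GTPase gene Gbp2b at -2.95, the phosphodiesterase gene Gdpd3 at -2.65, Plac8 at -2.56, the membrane protease gene Tmprss6 at -2.47 and Ubd, a ubiquitin-like modifier, at -2.39. Plac8 had Cy5 signals of 30728 and 3445. Ifi27l2a, an interferon-induced gene, had Cy5 signals of 11226 and 1769, a difference of -2.21, and its second probe gave -1.71. Of 25 interferon response genes 2 (8%) were 2-fold lower, Ifi27l2a and Ifit3 at -1.19, and 0 were higher, with a median of -0.30; 5 were lower with median centring.

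On the higher side, Fxyd2, a regulator of the sodium pump, had Cy5 signals of 64.2 and 2013 and differed by 3.88. Slc5a5, the sodium iodide symporter that concentrates iodide in milk, had signals of 140 and 1479 (2.84), and Trpc6, a cation channel, of 230 and 1705 (2.50). Ido1, an enzyme of tryptophan catabolism, had signals of 1615 and 16114 and differed by 2.50, and its Cy3 signal was 93.6 and 202. Piezo2, a mechanosensitive channel, differed by 2.59 on its brightest probe and by 0.13 and -0.16 on its dim ones. In the sorted cells Slc5a5, Trpc6 and Piezo2 were lower in het P5, by -1.89, -2.13 and -1.92.

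Stress and growth-arrest genes gave 3 higher of 23 listed as p53 targets and CDK inhibitors (13.0%) and 0 lower, with a median of -0.02. Trp53inp1, a p53-induced gene, had Cy5 signals of 9157 and 22076 and differed by 1.99, with 1.60 on its second probe. Gadd45a differed by 1.74 and Gadd45g by 1.72, both DNA damage and stress genes, while the p21 gene Cdkn1a differed by 0.18 and Mdm2 by -0.51. With median centring 4 of the 23 were 2-fold lower. Of 30 cell cycle genes 0 were 2-fold apart, with a median of -0.27, and 3 were lower with median centring. Of 13 housekeeping genes 1 was, Ywhaz, at 1.84 on its brightest probe and -0.26 and 0.31 on the others.

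Several of the largest higher values rested on a single probe or on probes of unusual signal. Ptprz1, a receptor tyrosine phosphatase of glia, had Cy5 signals of 47238 in WT MEC and 342612 in het MEC on its brightest probe, a difference of 4.43. That probe's reference Cy3 signal was 608546 in WT MEC and 349596 in het MEC, against 648973 to 653583 on the sorted arrays. The other 3 Ptprz1 probes differed by -0.11, 0.19 and -0.07. None of the other 16 genes of neural crest, glia and nerve was 2-fold higher: Sox10, a transcription factor of glia and neural crest, differed by -0.53, and Gpm6b, at -1.29, was 2-fold lower.

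A like pattern held for Grn, Syt10 and Cox17. The Grn probe differed by 3.45 (Cy5 41188 and 189352) and the second probe of Grn by 0.43. The Syt10 probe differed by 3.54, with 0.20 on a second probe not well above background, and the Cox17 probe by 2.93, with 0.28 on its second probe. Klf2, a transcription factor gene, differed by 2.43 and its second probe by 1.26. Lars2, a mitochondrial tRNA synthetase, had Cy5 signals of 70592 and 370027 and differed by 3.06. Over the higher set, 113 genes had other probes well above background on both arrays; the median of those had the same sign in 96 and was itself 2-fold higher in 35. Of the 118 lower genes with such probes, these counts were 95 and 22, and over all 7876 genes with such probes the sign was shared in 66.0%.

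**Figure D4:**
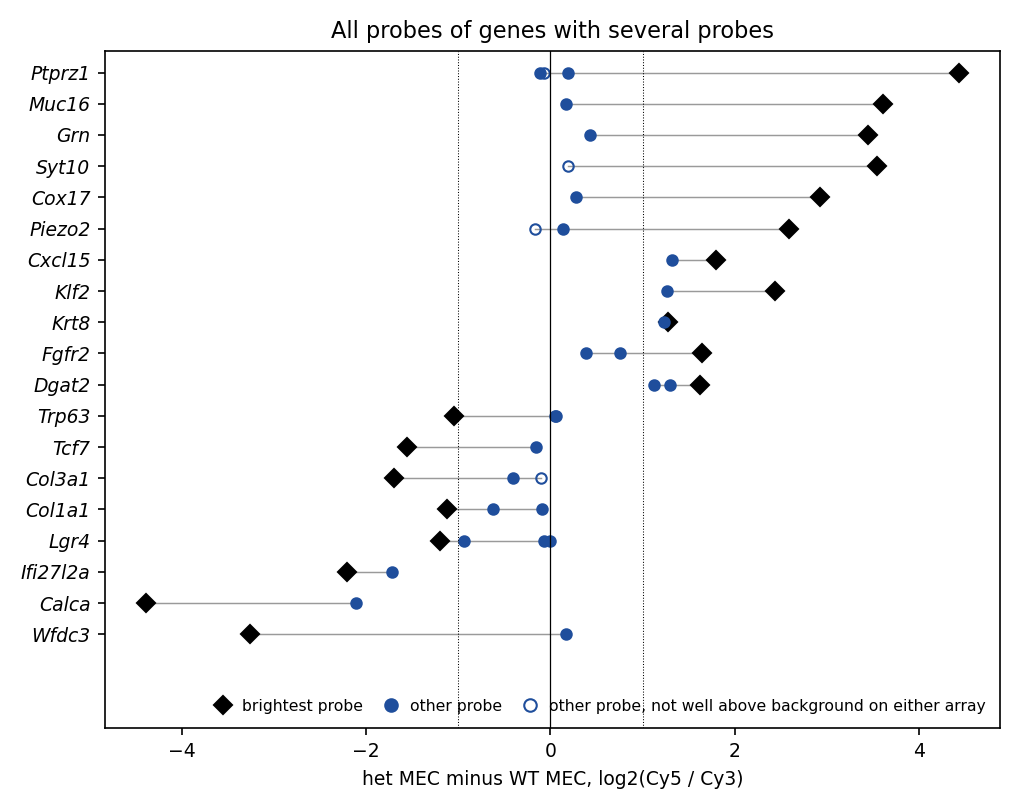
Differences het MEC minus WT MEC in log2(Cy5/Cy3) (x axis) for every measured probe of 19 genes (y axis), with diamonds for the brightest probe, filled circles for others and open circles for others not well above background on either array. The probes of Krt8, Dgat2, Cxcl15 and Ifi27l2a lie together, and those of Ptprz1, Muc16, Grn, Cox17 and Wfdc3 lie more than 2-fold apart.

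Probes annotated as ribosomal RNA were higher in het MEC, chosen after their values were seen. The array has 2 probes whose annotation is J00623, the record of a mouse ribosomal RNA gene per the files, and they differed by 2.95 (Cy5 323 and 3687) and 1.81 (Cy5 1553 and 3774). The probes LOC673334 (3.02, Cy5 1361 and 16442), Pigt (2.17, Cy5 418666 and 614321) and NAP114506-1 (3.03, Cy5 53911 and 60706) lie between chr17:38064742 and chr17:38066423 in the files' coordinates, while a second Pigt probe at chr17:38064637-38064696 differed by -0.04. The reference Cy3 signal was lower on the het array for NAP114506-1, 145987 against 34192, whose Cy5 signals were nearly equal, and for Pigt, 147745 against 86604. It was higher there for LOC673334, 6194 in WT MEC and 11992.5 in het MEC. For the J00623 probe at 2.95 it was 2013 in WT MEC and 3315 in het MEC, and for the other J00623 probe 8515 and 7927. Whether any of these probes reads ribosomal RNA was not tested.

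Probes rich in G and C were higher in het MEC too. Of 131 genes read by a probe with over 60% G and C, 32 (24.4%) were at least 2-fold higher and 0 lower, and the median was 0.41, beside 0.36 for the same probes in P4 and 0.17 in P5. Of 5351 genes read by probes with up to 35%, 0.69% were higher and 1.35% lower. H1f10, a linker histone gene, differed by 2.50 on a probe with 71.7% and by 0.11 on one with 55%, and Ptms, chosen after its value was seen, by 2.19 on a probe with 85%. Leaving out probes over 60% left 260 higher and 258 lower genes, and the part of probe composition in single values was not tested beyond this.

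**Figure D5:**
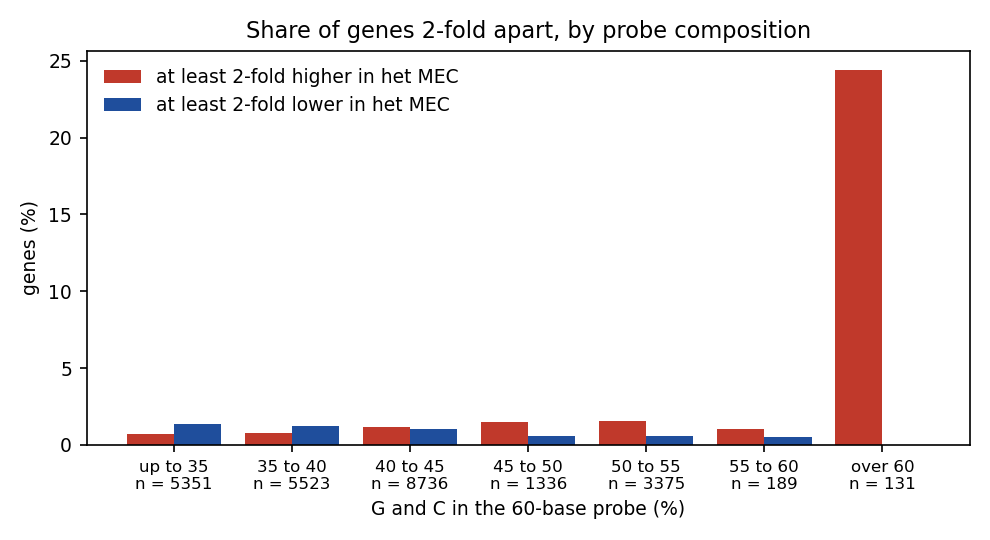
Share of genes at least 2-fold higher (red bars) or lower (blue bars) in het MEC, in percent on the y axis, by G and C content of the probe on the x axis, with the number of genes under each bin. The bin over 60% holds 24.4% higher and 0 lower genes, and the bin up to 35% holds 0.69% and 1.35%.

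The genotype difference in MEC was set against the mean of the genotype differences in P4 and P5 with limma over all 6 arrays. The fit had 1 residual degree of freedom, the gap between the genotype differences of P4 and P5, and assumes MEC arrays to vary like the sorted ones. Its p-values therefore do not measure a spread between mice or between repeated arrays. The 6 arrays lay on 2 slides, both MEC arrays on slide 2, so a gap tied to slide or hybridisation cannot be told apart from one of population. The reference Cy3 signal of the Trp63 probe, for example, was 99.1 and 93.8 on the MEC arrays and 245 to 304 on the sorted ones. At an adjusted p under 0.05, 208 of 24691 genes (0.842%) lay above the sorted difference and 385 (1.56%) below it. The count was 0 with the backgrounds as given, with the ratios of the scanner software and with the deposited series table, so the calls depend on that choice. Calca gave the largest gap among the named genes, -7.25, and Rspo1 gave -4.61; both were lower in het MEC and higher in het P5. Trp63 gave -0.97 with a standard error of 0.35 and an adjusted p of 0.24 in limma.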

How the data were processed

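The 6 samples were hybridised by the authors to Agilent arrays in 2 colours, 1 array each, and scanned with Agilent Feature Extraction 9.5.3.1, per the submitters' processing notes and the file headers. The deposited scanner files hold each spot's raw intensity and local background, and the software's own deposited ratio (log10, Cy5 over Cy3), already background-subtracted and dye-normalized. In the series table deposited by the authors are log2 ratios; its columns followed the software's ratios (correlations 0.999 and 0.998 for WT and het MEC), so its direction is sample over reference, with medians of -0.04 and 0.02, and what later steps were taken is not given in the sources used here. Flags are deposited by the authors' software as other values of 0 or 1.

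Here limma 3.58.1 was run in R 4.3.3: normexp with an offset of 50, loess within each array, and the mean over spots of a probe. Control spots got weight 0, and 236 (WT) and 168 (het) spots marked as outliers were left out. Local backgrounds marked as outliers by the scanner were replaced by the array's median background of unmarked spots. This had been listed as an alternative and was made the main setting after seeing the data, because large marked backgrounds distorted the correction of the WT MEC array; both sets of counts are printed. A gene was read by its brightest probe among those well above background on at least 2 of 6 arrays, and entered if well above background on 1 of the 2 MEC arrays. Of 41174 probes 22951 were named by accession, 6659 by symbol and 3109 by synonym, and 8455 kept the array's name. The sorted arrays entered only the limma fit, with Benjamini-Hochberg adjustment over all genes; that fit was tested on simulated data.

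Named genes were Trp63, the 5 markers, the 15 largest differences each way that were 2-fold under all 3 background and software settings, up to 4 members per list, and the largest bounds. The members, lists and rule were chosen with earlier results of these data known. Alternatives and their effect are given in the closing section.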

Additional observations from a re-analysis of the deposited data

Results flagged for a closer look

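Among the 74 genes that the rule for named genes picked, 62 had a genotype difference in MEC that departed from the mean of the P4 and P5 differences at an adjusted p under 0.05 in limma, 28 of them above and 34 below it. These genes were chosen for their large differences in MEC, so the test is not independent support for them. The test rests on 1 residual degree of freedom, from the gap between P4 and P5 and not from replicates, and cannot tell population from slide. The 40 given below passed also with no background subtraction, with median centring, in Cy5 alone and with the mean over probes; over all genes 150 did. None of the 40 passed with the local backgrounds as given, the software's ratios or the deposited series table, where no gene did, and a normexp offset of 0 left 1 gene of all. Each value is the MEC difference minus the mean sorted difference on the log2 scale.

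Above the sorted difference lay the mucosal and luminal genes Muc16 (4.50), Dmbt1 (2.83), Ptn (2.99), Wnt4 (1.51), Cxcl15 (3.52), Prom1 (2.52) and Krt19 (1.41). Transport, signalling and stress genes above it were Fxyd2 (4.70), Slc5a5 (3.89), Piezo2 (4.08), Trpc6 (3.76), Cyb561a3 (2.24), Dgat2 (1.80), Fgfr2 (2.42) and Gadd45g (2.90). Also above it were Syt10 (3.67), Grn (3.76), Lars2 (3.73), Cox17 (3.53) and Klf2 (2.91), whose probes had a Cy3 signal above the Cy5 signal in WT MEC. Below it lay Calca (-7.25), Rspo1 (-4.61), Wnt2 (-1.87) and Sfrp2 (-1.97), of the hormone and Wnt lists. Secreted proteins below it were Sftpd (-5.48), Saa2 (-3.27), Wfdc3 (-3.65) and Csn1s2a (-1.39), and keratins of the inner root sheath were Krt71 (-2.87), Krt25 (-2.42), Krt28 (-2.26) and Krt27 (-1.71). The others below it were Gbp2b (-1.94), Ifi27l2a (-2.48), Ubd (-2.21), Plac8 (-2.36), Gdpd3 (-2.60), Tmprss6 (-3.04), Col3a1 (-2.95) and Lum (-2.37). Calca and Rspo1 were lower in het MEC and higher in het P4 and het P5, and Col3a1 and Lum had the same order.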

How the results depend on the processing

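The counts of genes at least 2-fold higher and lower, 292 and 258, were 497 and 170 with the local backgrounds as given, 673 and 675 with ratios of the scanner software and 672 and 675 with the deposited series table. The lower count was 520 with a normexp offset of 0 and 544 with median centring in place of loess, with higher counts of 438 and 224. Both counts stayed within 1.5 times with no background subtraction, in Cy5 alone, with the mean over probes, with either filter on dim probes, without probes over 60% G and C and without genes 2-fold apart in Cy3. The Trp63 difference of -1.04 was -0.13 with the backgrounds as given, -0.75 in Cy5 alone and -0.31 as the mean over probes. No named gene turned sign, but 17 of 32 list medians did in at least 1 setting, 12 of them with the backgrounds as given. In the main setting the largest of these 17 medians lay 0.33 from 0. Examples are Notch genes (-0.11 to 0.14 as given) and immediate-early genes (0.14 to -0.26 with median centring). The turned median furthest from 0 was that of cytosolic ribosomal protein genes, 0.01 in the main setting and -0.62 with median centring. The 593 genes whose MEC difference departed from the sorted one were 0 with the backgrounds as given (limma), the software's log ratios and the deposited table, 1 with an offset of 0, 374 with no background subtraction, 242 with median centring and 267 with the mean over probes; 3466 had an unadjusted p under 0.05. The cause of these changes was not tested. The local background was the choice that moved Trp63 most: on the WT MEC array it reached 6566 in Cy3, and the lowest decile of corrected Cy5 signals was 186 with the backgrounds as given against 74.6 with the replacement and 53.4 before correction. No paired analysis was possible because the labels give no replicate numbers and each group has 1 array. Leaving out an array ends the comparison. Signals near background (about 36 in Cy5) limit the dim genes, and in the dimmest of 4 equal bins 0 genes were 2-fold apart.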
